A study of Homo sapiens with 6 samples.

Results

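Genes that cut, carry and trim peptides for display on MHC class I molecules were followed in SUM149 cells after siRNA against TIG1. They are the 10 genes B2M, TAP1, TAP2, TAPBP, PSMB8, PSMB9, PSMB10, ERAP1, ERAP2 and HLA-E, chosen by name for their part in this pathway. The array holds 27 probe sets that its annotation pairs with exactly 1 of these symbols, of 54613 probe sets tested, and all 10 genes have at least 1. SUM149 is a human inflammatory breast cancer cell line, grown here with serum, insulin and hydrocortisone. The 3 siControl arrays came from cells given the siGENOME Non-Targeting pool, and the 3 siTIG1 arrays from cells given the ON-TARGET Plus SMART pool against TIG1, the gene now called RARRES1. Both pools were used at 200 nmol/L with oligofectamine, so the groups differ in the product line of the siRNA as well as in its target. The labels do not say whether replicates were separate cultures. If they were not, the tests below weigh only technical spread.

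Class I molecules show short peptides from the inside of a cell to CD8 T cells. Peptides are cut from proteins by the proteasome, whose catalytic subunits can be exchanged for PSMB8, PSMB9 and PSMB10 to form the immunoproteasome. The TAP1 and TAP2 transporter brings the peptides into the endoplasmic reticulum, where TAPBP (tapasin) holds the transporter to empty class I molecules and the aminopeptidases ERAP1 and ERAP2 trim the peptides to length. A class I molecule is a heavy chain, such as HLA-E, bound to the light chain B2M. Interferons are well known to raise this whole set of genes, through response elements in their promoters.

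The promoters are shown here because interferon response elements are the feature these genes are best known to share. RefSeq windows of GRCh38.p14, from 250 bases before a start site to 50 after it, were found for 9 of the 10 members, in 13 windows, and HLA-E had none. Both strands were searched. The core of the interferon-stimulated response element (ISRE), GAAANNGAA, was found in windows of 8 of these 9 genes, PSMB9 being the exception. It is in 9.86% of the 27305 genes with such a window and in 8.11% of the 35116 windows. Capitals mark matches to this core or to the NF-kB consensus, which may overlap, and in PSMB9 they mark a GC box, GGGCGG. Positions run along the gene's own strand.
B2M, chr15:44711357-44711416, plus strand: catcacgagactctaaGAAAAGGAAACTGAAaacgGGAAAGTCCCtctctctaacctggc
TAP1, chr6:32853755-32853854, minus strand: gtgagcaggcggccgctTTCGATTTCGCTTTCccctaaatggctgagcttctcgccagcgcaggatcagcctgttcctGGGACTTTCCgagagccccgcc
PSMB9, chr6:32854132-32854191, plus strand: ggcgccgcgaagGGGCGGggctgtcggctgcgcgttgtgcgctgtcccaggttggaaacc
TAP2, chr6:32838760-32838819, minus strand: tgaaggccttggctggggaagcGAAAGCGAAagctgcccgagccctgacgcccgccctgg
TAPBP, chr6:33314079-33314138, minus strand: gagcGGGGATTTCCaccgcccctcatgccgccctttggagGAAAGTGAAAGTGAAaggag
PSMB8, chr6:32844042-32844071, minus strand: cctccccttcgatctgtggctTTCGCTTTC
PSMB10, chr16:67936851-67936910, minus strand: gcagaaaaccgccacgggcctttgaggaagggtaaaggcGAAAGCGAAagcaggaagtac
ERAP2, chr5:96876440-96876499, plus strand: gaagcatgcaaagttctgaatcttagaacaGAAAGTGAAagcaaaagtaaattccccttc

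B2M, TAP1 and TAPBP each hold a pair of overlapping ISRE cores, and the other genes hold 1 each. The PSMB8 match straddles a listed start site, and that of ERAP1, which is not printed, starts at position 4 of the transcript. TAP1 and PSMB9 face away from each other, with 487 bases between their start sites. The ISRE pair printed for TAP1 lies 355 to 369 bases before the PSMB9 start site, which is outside the PSMB9 window of 250 bases. The NF-kB consensus was found in TAP1, TAPBP, ERAP1 and B2M, against 13.3% of all genes. The gamma-activated site TTCNNNGAA was found in PSMB8 and TAP1, against 9.38%, and the cyclic AMP element TGACGTCA in none of the 9, against 2.25%. The GC box was found in 5 of the 9, against 48.3%. These are letter matches and say nothing of binding.

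Of the 27 member probe sets, 4 rose and 2 fell in the siTIG1 group at a limma adjusted p under 0.05, and 21 did not pass. Over all probe sets 5.01% were called, 2.14% as higher and 2.87% as lower. In bulk RNA such a change cannot be told apart from a change in the share of cells that express the gene. PSMB8, PSMB9, ERAP2 and B2M each had 1 probe set that rose, and TAP2 and ERAP1 each had 1 that fell. PSMB10, TAP1, TAPBP and HLA-E had no called probe set. The sign was positive for 22 of the 27, with a median log2 difference of 0.165, and over all probe sets the median was 0.015. The values of the 2 groups did not overlap for 17 of the 27, of which 15 lay higher and 2 lower, and did not overlap for 27.8% of all probe sets.

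The array of siControl replicate 3 stood apart, and it bears on most of these values. It correlated at 0.985 with both other controls, which correlated with each other at 0.998, while arrays of the siTIG1 group correlated at 0.998 to 0.999. It was the outermost control on 23 of the 27 member probe sets, the lowest on 16 and the highest on 7, with departures from the other controls of -1.85 to 0.72. That share, 85.2%, lay near the 81.7% of all probe sets on which it was the outermost control. Without it 11 member probe sets were called as higher and 3 as lower, against 7.87% and 11.0% of all probe sets. The 6 calls made with all arrays were all among these, and no member changed sign. Leaving out an array other than siControl replicate 3 ended all 6 calls, except that PSMB8 kept its call without siControl replicate 2.

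The arrays were also checked for the targeted gene, for cell type and for RNA quality. RARRES1 was lower on its 3 probe sets, by -1.28, -1.24 and -0.83 on the log2 scale, with no limma call (adjusted p = 0.20, 0.23 and 0.27). Without siControl replicate 3 the first 2 of these passed, at -0.75 and -0.68 (limma adjusted p = 0.024 and 0.043). The siTIG1 replicate 1 array read 12.69 on RARRES1 probe set 221872_at, above siControl replicates 1 and 2 at 12.65 and 12.61. For cell type, array means of the 7 measured epithelial markers were 13.06 to 13.19 (siControl) and 13.14 to 13.19 (siTIG1), but single markers moved. The keratin KRT19 rose by 1.00 ± 0.15 (SE, limma adjusted p = 0.018), 6 did not pass, and without siControl replicate 3 a total of 3 rose and 1 fell. EGFR, the epidermal growth factor receptor, was at -1.43 (limma adjusted p = 0.15) and, without that array, at -0.86 (limma adjusted p = 2.8e-05). Array means of 6 leukocyte markers were 7.46 to 7.73 and 7.57 to 7.61, and none passed. CD14, a monocyte marker, read 7.67, 7.62 and 8.95 on the siControl arrays and 8.48, 8.48 and 8.37 on the siTIG1 arrays, and it passed without siControl replicate 3, at 0.80 (limma adjusted p = 5.6e-05). Array means were, for 4 fibroblast markers, 7.62 to 7.86 and 7.67 to 7.75, and, for 4 endothelial markers, 7.41 to 7.51 and 7.51 to 7.54. The median probe set lay at 7.89, and single markers of these 3 lists lay on both sides of it. Over the 6 arrays the leukocyte markers CD3E and LYZ read 8.79 to 8.92 and 6.13 to 6.42. The fibroblast markers COL1A1 and LUM read 9.91 to 10.44 and 4.96 to 5.08. The endothelial markers PECAM1 and CDH5 read 9.24 to 9.37 and 5.64 to 5.87. For RNA quality, the 3' signal of the ACTB control probe sets minus their 5' signal, a measure that increases with RNA breakdown, was 2.73, 2.62 and 3.21 on the siControl arrays and 2.14, 2.28 and 2.34 on the siTIG1 arrays. That of GAPDH was 0.48, 0.46 and 0.57, and 0.47, 0.46 and 0.46. Their part in the results was not tested.

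The immunoproteasome subunits PSMB9 and PSMB8 rose. PSMB9 (204279_at), which replaces PSMB6 in the immunoproteasome, read 9.91, 9.91 and 9.05 on the siControl arrays and 10.88, 10.93 and 10.97 on the siTIG1 arrays. The siTIG1 values lay within a narrow band above every control, and siControl replicate 3 was the lowest. The log2 difference was 1.30 ± 0.23 (SE), a 2.47-fold rise (limma adjusted p = 0.029, n = 3 per group). Without siControl replicate 3 it was 1.02 ± 0.056 (SE), 2.02-fold (limma adjusted p = 1.3e-05).

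PSMB8 (209040_s_at), which replaces PSMB5, read 11.64, 11.70 and 11.22 on the siControl arrays and 12.37, 12.25 and 12.39 on the siTIG1 arrays. The groups did not overlap. It rose by 0.82 ± 0.13 (SE) on the log2 scale, 1.77-fold (limma adjusted p = 0.022), and 0.67 without siControl replicate 3. Of the 27 member probe sets it had the lowest p.

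PSMB10 (202659_at), which replaces PSMB7, read 9.90, 9.78 and 9.17 on the siControl arrays and 10.09, 10.18 and 10.18 on the siTIG1 arrays. All siTIG1 values lay above all controls, but the control spread was wide (SD 0.39, n = 3). The log2 difference was 0.53 ± 0.18 (SE) and did not pass (limma adjusted p = 0.18). It was 0.31 ± 0.062 (SE) without siControl replicate 3 and passed (limma adjusted p = 0.0088).

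The standard subunits that these 3 replace, named here after their values were seen, did not pass. PSMB5 differed by 0.35 and PSMB6 by 0.32 on the log2 scale, with siControl replicate 3 below the other controls by 0.59 and 0.62, and without that array they differed by 0.15 and 0.12. PSMB7 differed by -0.12. The 95% interval was -0.08 to 0.73 for PSMB6 and 0.76 to 1.85 for PSMB9. The intervals of PSMB5 (-0.04 to 0.73) and PSMB8 (0.51 to 1.13) overlapped. For PSMB7 the interval was -0.25 to 0.01, and for PSMB10 0.09 to 0.97. All were read on the same arrays, so the intervals of a pair are not independent. The difference between the exchanged pairs was not tested.

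**Figure D1:**
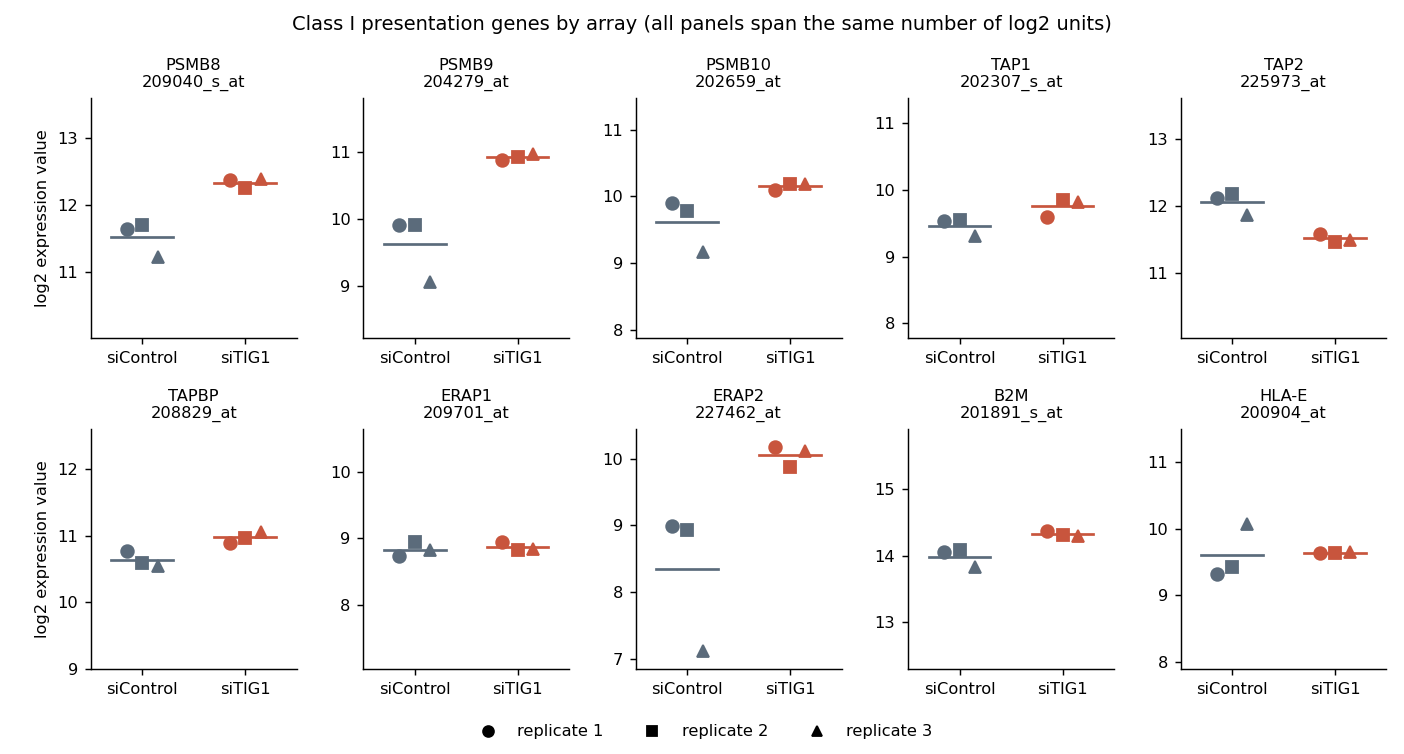
The log2 expression value of each array for the brightest probe set of each of the 10 genes, x_at probe sets left aside; marker shapes give the replicate number, horizontal lines the group means, and all panels span the same number of log2 units, which need not start at 0. PSMB8 and PSMB9 lie higher and TAP2 lower on every siTIG1 array than on any control. PSMB10, TAP1, TAPBP, ERAP2 and B2M also lie higher on every siTIG1 array, though these probe sets did not pass. The siControl replicate 3 array reads 7.12 for ERAP2 and 10.07 for HLA-E, away from the other controls.

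The peptide transporter genes gave no common direction. TAP1 (202307_s_at) read 9.53, 9.54 and 9.31 on the siControl arrays and 9.59, 9.84 and 9.82 on the siTIG1 arrays. The groups did not overlap, but siTIG1 replicate 1 lay close to the controls. The log2 difference of 0.29 ± 0.097 (SE) did not pass (limma adjusted p = 0.17), nor did the 0.22 without siControl replicate 3 (limma adjusted p = 0.097).

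TAP2 fell on its brightest probe set, 225973_at. It read 12.12, 12.18 and 11.87 on the siControl arrays and 11.59, 11.46 and 11.50 on the siTIG1 arrays. Every siTIG1 value lay below every control. Its log2 difference was -0.54 ± 0.09 (SE), 1.45-fold lower (limma adjusted p = 0.025), and -0.63 without siControl replicate 3.

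The other 3 TAP2 probe sets did not pass. Probe set 204770_at was at -0.17 with all arrays (limma adjusted p = 0.66) and passed as lower without siControl replicate 3, at -0.37 (limma adjusted p = 0.0036). Probe sets 204769_s_at and 208428_at were at 0.24 and 0.16 on the log2 scale. On 204769_s_at the controls alone ranged from 10.18 to 11.00. The change of 204769_s_at lay 0.78 above that of 225973_at, with an exact 2-sided permutation p of 0.1, the smallest that 3 against 3 arrays allow. This pair was set side by side after the values were seen, as the TAP2 probe sets with the highest and the lowest difference. Its p therefore cannot show that the 2 disagree. The files do not say which part of the TAP2 transcript each probe set reads.

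TAPBP, the bridge between the transporter and class I molecules, was higher on its 3 probe sets without passing. Its brightest, 208829_at, read 10.77, 10.59 and 10.54 on the siControl arrays and 10.89, 10.97 and 11.06 on the siTIG1 arrays. The groups did not overlap. The log2 difference was 0.34 ± 0.081 (SE, limma adjusted p = 0.072), and it passed without siControl replicate 3, at 0.29 (limma adjusted p = 0.025), and after quantile normalization, at 0.39 (limma adjusted p = 0.048). Probe sets 1555565_s_at and 210294_at were at 0.12 and 0.17 on the log2 scale.

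Of the trimming enzymes, ERAP2 rose on 1 of its 5 probe sets. Probe set 219759_at read 7.27, 7.27 and 6.33 on the siControl arrays and 8.08, 8.18 and 8.17 on the siTIG1 arrays. Every siTIG1 value lay above every control. The controls lay under the median probe set (7.89) and the siTIG1 values above it. It rose by 1.19 ± 0.25 (SE) on the log2 scale, 2.28-fold and near the threshold (limma adjusted p = 0.049), a call that was lost after quantile normalization, after median centring and with a trended robust variance (limma adjusted p = 0.053, 0.052 and 0.051).

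The brightest ERAP2 probe set, 227462_at, had the largest difference of all 27 and did not pass. It read 8.99, 8.93 and 7.12 on the siControl arrays and 10.17, 9.88 and 10.11 on the siTIG1 arrays. The control array of replicate 3 lay 1.85 below the other controls, while the siTIG1 arrays lay together above them. The log2 difference was 1.71 ± 0.49 (SE, limma adjusted p = 0.12) with all arrays, and 1.09 ± 0.086 (SE), 2.13-fold, without that array (limma adjusted p = 6.7e-05). Probe sets 235104_at and 1554273_a_at were at 0.31 and 0.16 without overlap of the groups, and 1554272_at, at levels of 4.78 to 5.03, was at 0.03.

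ERAP1 probe sets went both ways. Probe set 209788_s_at fell from 7.76, 7.85 and 7.71 on the siControl arrays to 7.51, 7.30 and 7.38 on the siTIG1 arrays. Each of these values lay under the median probe set (7.89), and without detection calls they are not shown to lie above background. Probe set 210385_s_at read 7.80, 7.64 and 7.57 on the siControl arrays and 8.04, 7.92 and 8.11 on the siTIG1 arrays. The groups did not overlap on either, and the differences had opposite signs.

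The ERAP1 difference was -0.37 ± 0.072 (SE, limma adjusted p = 0.039) on 209788_s_at and 0.36 ± 0.081 (SE, limma adjusted p = 0.063) on 210385_s_at. The change of 210385_s_at lay 0.73 above that of 209788_s_at (exact 2-sided permutation p = 0.1, the smallest possible here), and 0.72 without siControl replicate 3. This pair too was chosen after its values were seen, as the ERAP1 probe sets with the highest and the lowest difference. Its p therefore cannot show that the 2 disagree. The brightest ERAP1 probe set, 209701_at, was at 0.04, with a 95% interval from -0.14 to 0.21. The dim probe sets 214012_at and 214034_at were at -0.26 and 0.05. In the RefSeq table of GRCh38.p14 the span of ERAP1 overlaps those of ERAP2 and of CAST, the gene of calpastatin. A probe set assigned to ERAP1 may therefore lie where another gene is also annotated. ERAP1 lies on the minus strand and ERAP2 on the plus strand. The sources used here do not give the position or strand that each probe set reads, and a part of the overlap in these values was not tested.

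**Figure D2:**
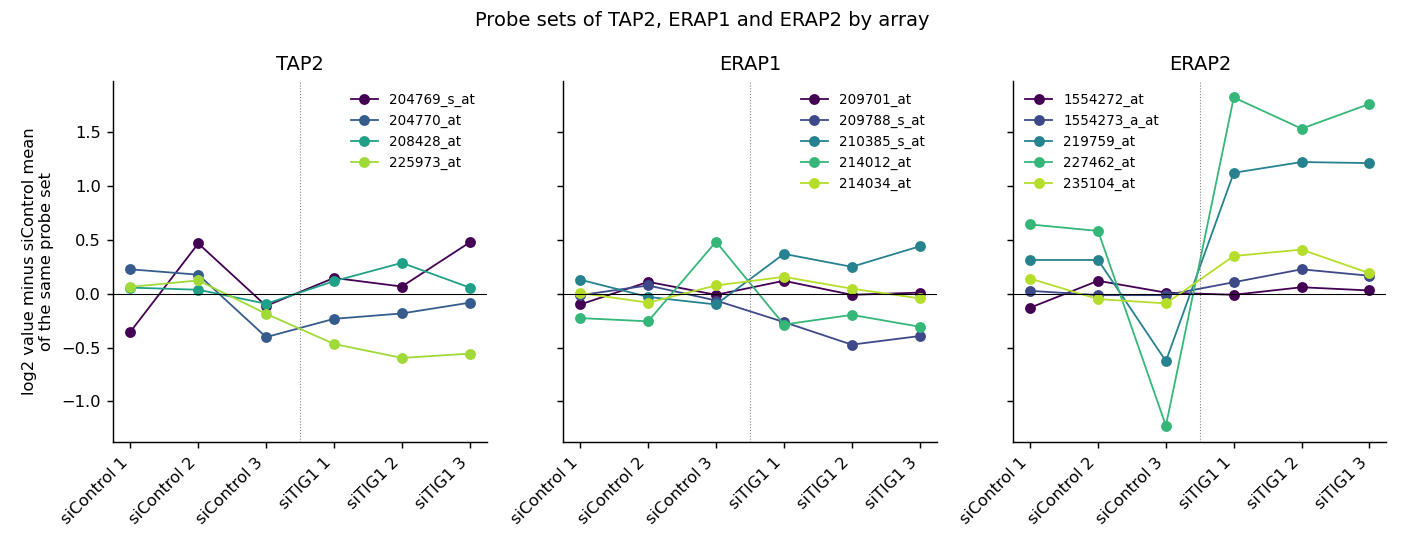
Each line is 1 probe set of TAP2, ERAP1 or ERAP2, as its log2 value on each array minus its own siControl mean. TAP2 225973_at and ERAP1 209788_s_at lie below 0 on every siTIG1 array, ERAP1 210385_s_at lies above 0 there, and ERAP2 227462_at and 219759_at drop on siControl replicate 3 and lie above all controls on the siTIG1 arrays.

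B2M, the light chain common to class I molecules, rose on 1 of its 3 probe sets. Probe set 216231_s_at read 12.33, 12.33 and 12.01 on the siControl arrays and 12.79, 12.66 and 12.66 on the siTIG1 arrays. The groups did not overlap. It rose by 0.48 ± 0.10 (SE) on the log2 scale, 1.40-fold (limma adjusted p = 0.048). The call was lost after median centring and with a trended robust variance (limma adjusted p = 0.054 and 0.062).

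The brightest B2M probe set, 201891_s_at, read 14.05, 14.08 and 13.83 on the siControl arrays and 14.37, 14.31 and 14.30 on the siTIG1 arrays. It was higher on every siTIG1 array, by 0.34 ± 0.079 (SE), and did not pass (limma adjusted p = 0.068), but did without siControl replicate 3, at 0.26 (limma adjusted p = 0.011). These values lie near the top of the range of the array, 15.59. Probe set 232311_at, at 5.59 to 5.88 on all arrays, was at -0.12.

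HLA-E, a heavy chain that presents leader peptides of other class I chains to natural killer cell receptors, did not pass on any of its 3 probe sets. Probe set 200904_at read 9.32, 9.42 and 10.07 on the siControl arrays and 9.63, 9.63 and 9.65 on the siTIG1 arrays. The siTIG1 values lay between siControl replicate 3 and the other controls. The log2 difference was 0.04, with a 95% interval from -0.42 to 0.49 (limma adjusted p = 0.94). It was 0.27 ± 0.057 (SE) without siControl replicate 3 and passed (limma adjusted p = 0.010). HLA-E 200905_x_at and 217456_x_at, which can bind related transcripts, were at 0.08 and 0.06, and at 0.23 (limma adjusted p = 0.021) and 0.16 (limma adjusted p = 0.084) without that array. HLA-E was thus the member gene whose siControl replicate 3 value lay above the other controls on all of its probe sets.

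**Figure D3:**
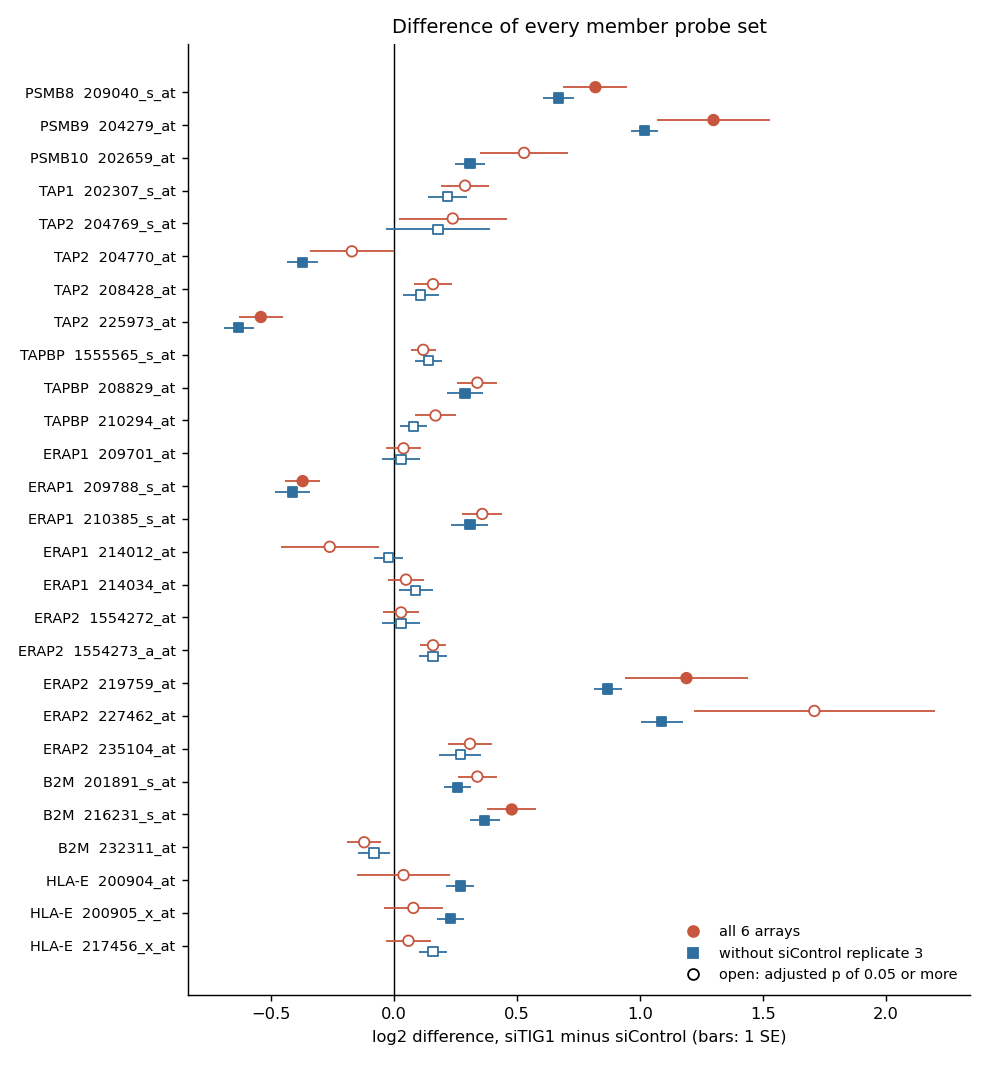
The log2 difference of siTIG1 minus siControl for the 27 member probe sets, with all 6 arrays (circles) and without siControl replicate 3 (squares); bars are 1 SE and filled symbols have a limma adjusted p under 0.05. PSMB9 is at 1.30 and 1.02, ERAP2 227462_at at 1.71 and 1.09, and HLA-E 200904_at at 0.04 and 0.27.

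Outside the members, 64 genes of 6 lists on the same pathway were measured, each by 1 probe set. Of these 6 rose, none fell and 58 did not pass by limma, where 2.86% of all 19775 genes were called as higher and 3.80% as lower by the same rule. Their median log2 difference was 0.104, against 0.015 over all genes. Without siControl replicate 3, 13 rose and 2 fell, against 10.1% and 13.0% of all genes at that setting. Leaving out any of the other 5 arrays left 0 or 1 rise and 0 falls.

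Among 10 class I and class I-like heavy chains, 3 rose, none fell and 7 did not pass, with a median of 0.26. HLA-C, a classical heavy chain, read 11.95, 11.84 and 12.10 on the siControl arrays and 12.62, 12.49 and 12.45 on the siTIG1 arrays, a rise of 0.56 ± 0.084 (SE, limma adjusted p = 0.018). HLA-B rose by 0.34 ± 0.058 (SE, limma adjusted p = 0.025). Both are read by x_at probe sets, which can share signal among class I heavy chains. MR1, which presents vitamin B metabolites to MAIT cells, rose by 0.51 ± 0.10 (SE, limma adjusted p = 0.043). HFE, the iron-regulating class I-like chain that pairs with B2M, had the largest difference of the list, 0.99 ± 0.21 (SE), and did not pass (limma adjusted p = 0.053). It passed without siControl replicate 3, at 0.73 (limma adjusted p = 0.00022), and is named after its value was seen. Unlike PSMB8, PSMB9 and B2M, HLA-C and MR1 had siControl replicate 3 above the other controls, by 0.20 and 0.34.

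Among 9 chaperones of class I assembly, TAPBPL, a tapasin-related peptide editor, rose by 0.33 ± 0.064 (SE, limma adjusted p = 0.040) and 8 did not pass, with a median of 0.06. Among 17 genes of the standard proteasome and its regulators, PSME1, a subunit of the PA28 activator that interferon gamma induces, rose by 0.32 ± 0.057 (SE, limma adjusted p = 0.031) and 16 did not pass, with a median of 0.23. That list lay 0.44 below the other controls on the siControl replicate 3 array by its median, and without the array its median was 0.09. The 6 measured peptidases did not pass. Of them THOP1, a cytosolic oligopeptidase that destroys class I peptides, was at -0.52 (limma adjusted p = 0.30) and TPP2, which trims long peptides, at 0.17 (limma adjusted p = 0.18). THOP1 was at -0.80 without siControl replicate 3, which passed (limma adjusted p = 0.00073).

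Among 11 interferon regulators, IFNGR1, a chain of the interferon gamma receptor, read 11.67, 11.76 and 11.67 on the siControl arrays and 12.30, 12.14 and 12.20 on the siTIG1 arrays. It rose by 0.52 ± 0.062 (SE, limma adjusted p = 0.0099), and 10 genes did not pass. Without siControl replicate 3, 5 of the 11 rose. IFNGR1 kept its call without any 1 array in 4 of 6 cases. The genes of this list other than IFNGR1 are outside the naming rule and were named after their values were seen. Of them, 2 had a negative difference. IFNGR2 was at -0.09, without overlap of the groups, and SOCS1 had a 95% interval from -0.19 to 0.19. IFNAR1 was at 0.08, or -0.14 without siControl replicate 3, and IFNAR2 and JAK2 were at 0.13 and 0.10. None of these passed with or without that array. IRF9, the DNA-binding part of the ISGF3 complex, had the largest difference of the list, 0.53 ± 0.12 (SE, limma adjusted p = 0.056). It passed without siControl replicate 3, at 0.65 (limma adjusted p = 0.00028). IRF2, a relative of IRF1, and the kinase JAK1 were at 0.40 and 0.27, and passed without that array, at 0.42 and 0.53 (limma adjusted p = 0.014 and 0.00032). The class I transactivator NLRC5 was at 0.03, with a 95% interval from -0.21 to 0.27, and the transcription factor IRF1 at 0.13, or 0.23 without siControl replicate 3, which passed (limma adjusted p = 0.018). The 11 class II genes did not pass, with a median of 0.07. HLA-DRA and the invariant chain CD74, the largest of them, were at 0.12 and 0.11 on the log2 scale, and the class II genes lay between array means of 7.61 and 7.75, near the median probe set.

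**Figure D4:**
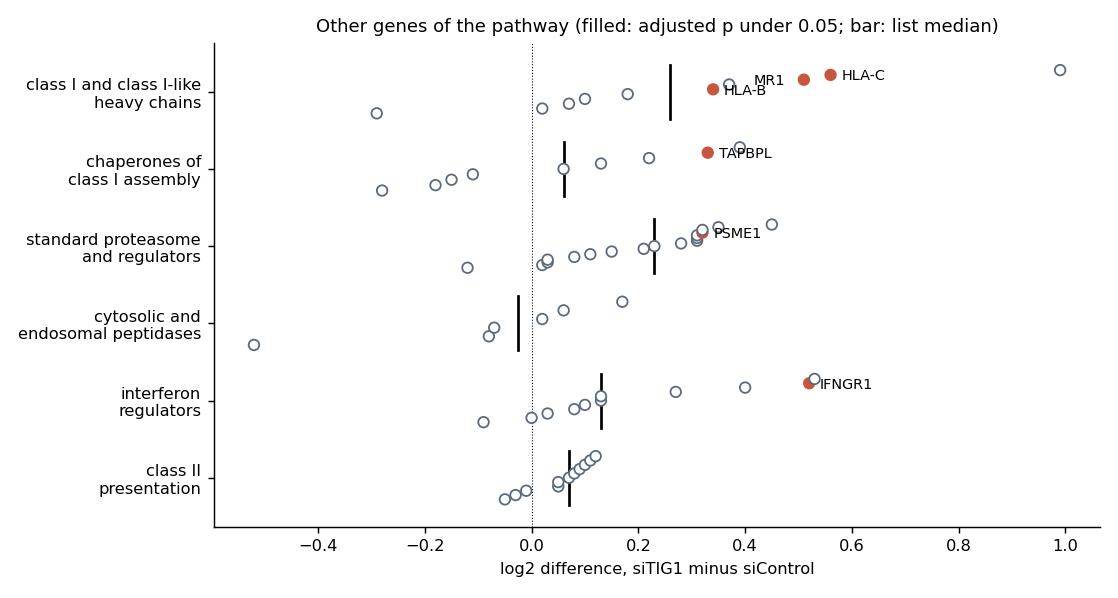
The log2 difference of siTIG1 minus siControl for 64 other genes of the pathway in 6 lists, each point a gene, filled and named where the limma adjusted p is under 0.05, with a bar at the list median. The 6 filled genes are HLA-C, HLA-B, MR1, TAPBPL, PSME1 and IFNGR1, all to the right of 0.

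The genes most like PSMB8, the member with the lowest p, were sought among 13156 other genes above the median level by Pearson correlation over the 6 arrays. They were TMEM165 (r = 0.999), C4orf33 (r = 0.9984), NTAN1 (r = 0.9982), NAP1L5 (r = 0.9981) and STEAP4 (r = 0.998), with log2 differences of 0.35, 0.71, 0.40, 0.94 and 1.16. The 6 points share the contrast of the groups and the low siControl replicate 3 array, and 461 genes (3.5%) had an r above 0.95.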

How the data were processed

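Gene expression was measured on Affymetrix HG-U133 Plus arrays. The authors deposited log2 values, 1 for each probe set on each array. The submitters' processing notes list MAS5 and RMA, whose roles were not given in the sources used here. Base 2 was inferred from their range, 4.28 to 15.59. Array medians lay between 7.87 and 7.90, and the values were used as deposited. They carry no detection call, so a low value is not shown to lie above background. Of 54675 probe sets, 62 control probe sets were left out. Of the other 54613, 41091 had 1 gene symbol, 1801 several and 11721 none. Symbols were updated by gene number through the RefSeq table of GRCh38.p14.

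limma 3.58.1 in R 4.3.3 (lmFit, eBayes, 2-sided, no block) was fitted to all 54613 probe sets, with Benjamini-Hochberg adjustment over all of them and a threshold of 0.05. Every adjusted p is from this fit unless a setting is named. The procedure was tested on simulated data with the same spread in both groups and no outlying array, unlike the data here. A gene of a pathway list was represented by its probe set with the highest mean, x_at probe sets only where it had no other. Text values cover all members, up to 4 called genes per list, or the 2 with the largest difference where a list had none, and the 5 genes most correlated with the member of lowest p. Pathway genes outside that rule are said to be so. Members, lists and tests were chosen with earlier results of these data known. Replicate numbers were not treated as pairs, since the labels do not say that they mark a shared culture or day. Deviations of same-numbered arrays from their group means correlated at -0.043, -0.01 and -0.005. With so few arrays and an outlying control, these values cannot show that pairing is absent. The number of arrays limits the precision.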

Additional observations from a re-analysis of the deposited data

How the results depend on the processing

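Of the 27 member probe sets, 4 rose and 2 fell with the settings used. The count of rises was 2 after median centring, 2 with 1 probe set per gene, 2 with a trended robust variance, 9 with array weights and 0 with the replicate block, and it was 0 to 11 with 1 array left out. The count of falls was 1 among probe sets above the median level, where fewer members were tested, 1 with 1 probe set per gene, 0 with the block and 0 to 3 with 1 array left out. Array weights gave siControl replicate 3 a weight of 0.159, against 1.097 or more for the others. Pathway genes that rose numbered 6, but 3 with the trended robust variance, 14 with array weights, 0 with the block and 0 to 13 with 1 array left out. None fell, but 1 did with array weights and 0 to 2 with 1 array left out. Over all probe sets 2737 were called, 1442 of 19775 with 1 probe set per gene, 8925 with array weights, 478 with the block and 327 to 10324 with 1 array left out. With 1 probe set per gene only 10 member probe sets were tested, and of these 2 rose and 1 fell with the settings used as well. Causes of the shifts were not tested.

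With the replicate block all 6 member calls were lost (limma adjusted p = 0.076 to 0.12). Each replicate number has 1 array in each group, so the block cannot change a difference or its sign, only its error. The sign of uncalled members turned only with 1 array left out: ERAP1 209701_at ranged from -0.014 to 0.091, ERAP2 1554272_at from -0.039 to 0.085, HLA-E 200904_at from -0.11 to 0.27 and HLA-E 200905_x_at from -0.009 to 0.23. The labels do not say whether same-numbered arrays share a culture or day, so whether the block belongs in the fit is not known. Without detection calls, the dimmest member probe sets cannot be told from background.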
